A study of Homo sapiens with 18 samples.

Results

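The genes described here are 10 components of transforming growth factor beta (TGF-beta) and bone morphogenetic protein (BMP) signalling: the ligand genes TGFB1, TGFB2 and BMP4, the receptor genes TGFBR1 and TGFBR2, the inhibitory SMAD genes SMAD6 and SMAD7, and the inhibitor of DNA binding genes ID1, ID2 and ID3. They were chosen by gene symbol and not by a rule on their values, though earlier results of these data were known. All 10 were found among the 38055 genes of the whole transcriptome RNAseq table. The study asked how growth to high cell density alters wild-type (WT) HCT116, a human epithelial line from a colorectal carcinoma, with no knockout, transfection or drug in the libraries used here. Cells grew in 2D culture in McCoy's 5A medium with fetal bovine serum, renewed daily from day 2, and whole-cell RNA was taken on day 3, at 50% confluency, and on day 5, at 250% confluency, where cells lie in stacked layers. Each day had 3 libraries, labelled as biological replicates. Days in culture and confluency changed together in this design and cannot be told apart. Day 7 whole transcriptome libraries were not analysed here.

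TGF-beta ligands are secreted in a latent complex and, once released, bring a type II receptor (TGFBR2) together with a type I receptor (TGFBR1), which phosphorylates SMAD2 and SMAD3. BMP ligands such as BMP4 act through their own receptors on SMAD1, SMAD5 and SMAD9, and in both branches SMAD4 joins the complex that enters the nucleus. SMAD6 and SMAD7 are feedback inhibitors whose genes the pathways themselves can induce. The ID genes are classical BMP targets, and ID proteins bind E proteins such as TCF3 and TCF12 and keep them from binding DNA. In colorectal epithelium TGF-beta restrains growth, and HCT116 is known for frameshift mutations that inactivate TGFBR2, so that a TGFBR2 transcript in this line does not stand for a working receptor.

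The 10 genes lie on 9 chromosomes of GRCh38. TGFB1 spans chr19:41301587-41353922 on the minus strand, BMP4 chr14:53949736-53958761 (minus), SMAD6 chr15:66702236-66782849 (plus) and SMAD7 chr18:48919853-48950965 (minus). ID1 is a compact gene at chr20:31605283-31606515 (plus), ID2 lies at chr2:8678845-8684461 (plus) and ID3 at chr1:23557926-23559501 (minus). TGFB2 shares chromosome 1 with ID3 and lies at chr1:218345336-218444619 (plus), while TGFBR1 lies at chr9:99104038-99154192 (plus) and TGFBR2 at chr3:30606601-30694142 (plus). TGFB1, TGFB2 and SMAD6 each overlap the span of a long noncoding gene on their own strand. Whether exons overlap, and so whether any reads are shared, was not examined. Counting was set to use strand, so partners on the opposite strand share no reads with the 10 genes under that setting.

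Promoter windows from RefSeq on GRCh38.p14, which reach from 250 bases before to 50 bases after an annotated start, were searched on both strands for 4 motifs. There were 22 such windows for the 10 genes. The motifs were the SMAD palindrome GTCTAGAC, the GC-rich SMAD element GGCGCC, the E-box CAGGTG, which E proteins can bind, and the TATA box TATAAA, which was added after the sequences were seen. The stretches below show a choice of these matches, each in 30 bases written 5′ to 3′ on the strand of the gene, with the motif in capitals.
SMAD6, chr15:66702213-66702242, plus strand, SMAD palindrome: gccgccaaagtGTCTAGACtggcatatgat
BMP4, chr14:53955264-53955293, minus strand, GC-rich element: cggggaacccgGGCGCCcgccccttctact
SMAD7, chr18:48942838-48942867, minus strand, E-box read on the other strand: accttgggaacCACCTGgtatccgtaatgg
SMAD7, chr18:48949350-48949379, minus strand, TATA box: gagaggcgtgcTATAAAggctggaaggtct
ID1, chr20:31605247-31605276, plus strand, TATA box: cgtggcgtgttTATAAAagacaagctgtgg
TGFB2, chr1:218345296-218345325, plus strand, TATA box: cagagagaactTATAAAtctcccctccccg

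The SMAD palindrome was the rarest of these motifs, in 0.202% of the 35116 windows of all genes, and among the 10 genes only a SMAD6 window held it, beginning 12 bases before the annotated start. GGCGCC stood in windows of BMP4 and TGFBR1 (19.2% of all windows), CAGGTG in windows of SMAD7 and TGFBR1 (20.6%), and TATAAA in windows of ID1, SMAD7 and TGFB2 (11.5%). None of the 3 SMAD and E-box motifs was in the windows of ID1, ID2 or ID3. The ID1 match overlaps a match on the other strand. These matches describe letters within the windows and were not tested as binding sites.

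The 6 libraries held 27470978 to 56689369 reads on genes. Values are given as deposited, as reads per gene scaled between libraries, and are called normalized values below. Day separated the libraries on the first principal component (73.8% of the variance), and the second (10.2%) set apart day 3 replicate 3, the library with the fewest reads. This library had the highest day 3 value for 7 of the 10 genes, beside 49.7% of all tested genes. The epithelial label fitted the markers: EPCAM, an epithelial adhesion gene, had normalized values of 6932 to 7403 on day 3 and of 7048 to 7389 on day 5. The summed value of 8 epithelial markers was 38700 to 57290 on day 3 and 109800 to 110300 on day 5, and 7 of the 8 rose. Summed markers of fibroblasts (5 genes) reached at most 64.2, of endothelium (3 genes) 68.3 and of leukocytes (5 genes) 39.4, with CDH5 and PTPRC, which define endothelial cells and leukocytes, at no more than 1.24 and 2.14 in any library. Of the low endothelial and leukocyte markers that could be tested, 2 of 2 and 1 of 2 rose. These were VWF, KDR and LYZ, at values of at most 39.7, and 29.3% of all tested genes rose. Without the day 5 libraries VWF, KDR and LYZ would not have reached the minimum for testing, a value of 10 in 3 libraries. The part of these markers in the results was not tested.

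Growth from 50% to 250% confluency was accompanied by a 3.24-fold rise of TGFB1, while TGFB2 and both receptor genes did not pass the test. BMP4 was lower in all 3 day 5 libraries but did not pass the test. SMAD7 and ID1 rose moderately, ID3 fell, and SMAD6 and ID2 did not pass the test. In all, 3 of the 10 genes were called higher and 1 lower on day 5 (limma on log2(value + 1), Benjamini-Hochberg adjusted p under 0.05 over 20129 tested genes), beside 56.9% of all tested genes called in either direction, 29.3% higher and 27.6% lower. Under upper quartile scaling 1 of the 10 was called higher and 3 lower. The day 3 and day 5 libraries did not overlap for 6 of the 10, beside 65.0% of all tested genes. A change of at least 2-fold that passed the test was found for 1 of the 10, beside 17.8% of tested genes. The share of these genes that changed was thus not above that of the transcriptome. p-values measure the spread between these cultures only, and in bulk RNA fewer cells with a transcript and less transcript per cell cannot be told apart.

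**Figure D1:**
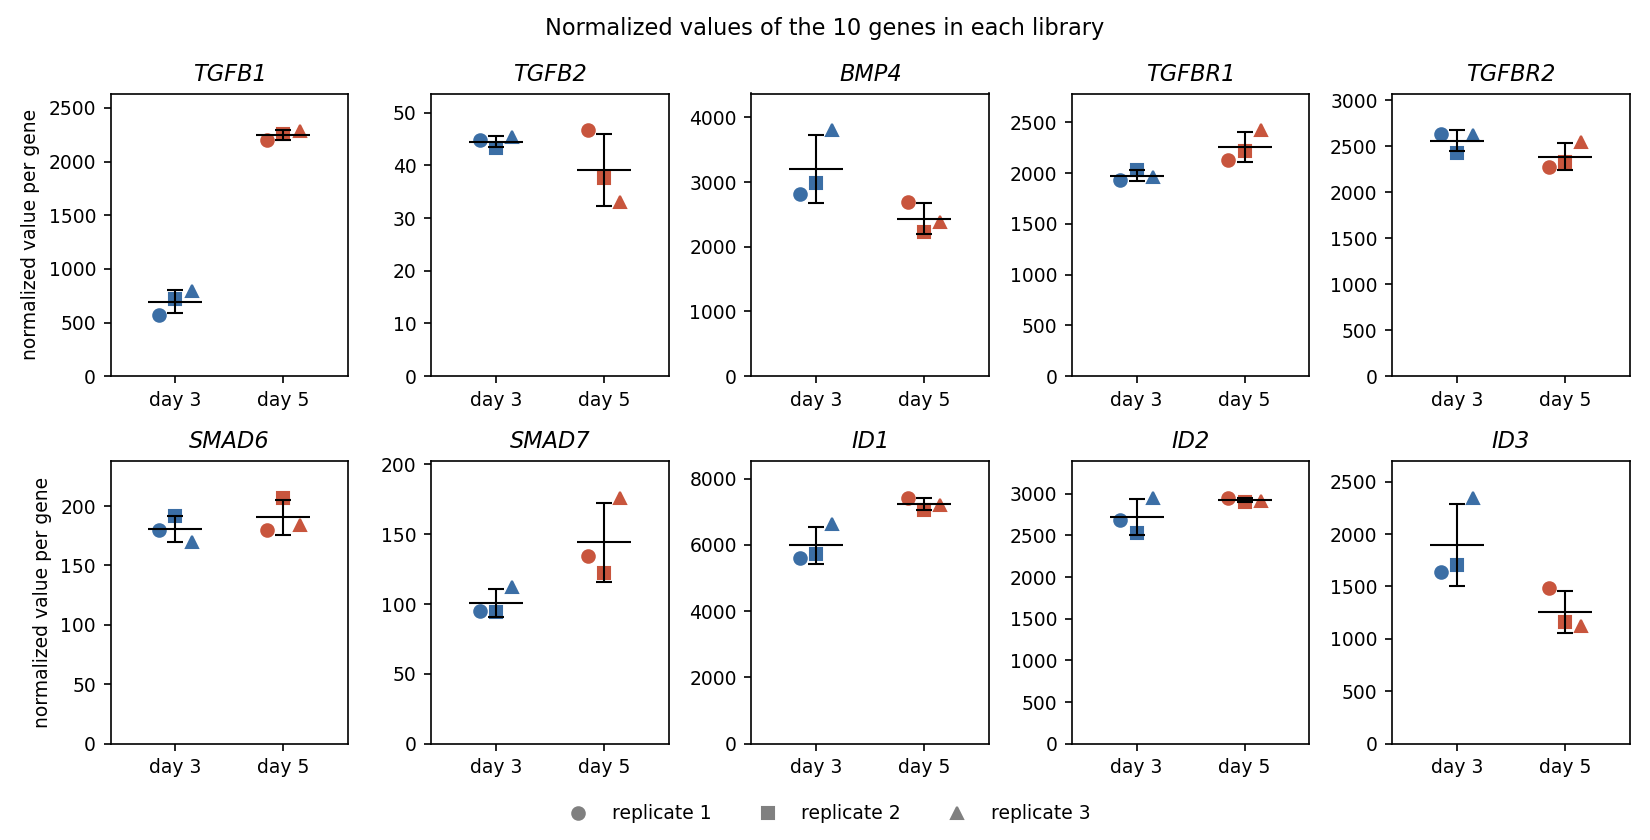
Normalized value (linear axis from 0) of each of the 10 genes in the 3 day 3 and the 3 day 5 libraries, with marker shape for the replicate number, a horizontal line for the mean and bars for 1 SD (n = 3). TGFB1 shows the widest gap between the days, from 574 to 790 on day 3 and from 2203 to 2287 on day 5, whereas the values of TGFB2, TGFBR2, SMAD6 and ID2 overlap between the days.

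TGFB1 encodes the main secreted TGF-beta isoform. Its normalized values were 574, 721 and 790 in the day 3 libraries and 2203, 2255 and 2287 in the day 5 libraries. All day 5 libraries lay far above all day 3 libraries, and the day 5 libraries were closer to each other (SD 42.8 around a mean of 2248) than those of day 3 (SD 110 around 695). The log2 fold change was 1.71 (SE 0.131, limma adjusted p = 0.000272), and 3.09% of all tested genes changed by more in either direction. These values rested on 557 to 2209 reads per library.

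TGFB2, which encodes a second isoform, was close to the lower limit of what these libraries measure well, at 32 to 70 reads. Its normalized values were 44.8, 43.3 and 45.4 on day 3 and 46.6, 37.5 and 33.1 on day 5. The highest and the lowest of the 6 values were both from day 5, so the days overlapped. Its log2 fold change was −0.20 (SE 0.134, limma adjusted p = 0.256). Within each library the ratio of TGFB1 to TGFB2, which no scaling between libraries can alter, went from 12.8, 16.7 and 17.4 on day 3 to 47.2, 60.1 and 69.0 on day 5, with no overlap between the days.

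BMP4, a secreted BMP ligand gene, was the most abundant of the 3 ligand genes per kilobase of exon on both days. Its normalized values were 2815, 2989 and 3799 on day 3 and 2696, 2235 and 2375 on day 5. Every day 5 library was below every day 3 library, but the lowest day 3 and highest day 5 values were close, and day 3 replicate 3 stood above the other two. The log2 fold change was −0.39 (SE 0.143) and did not pass the threshold (limma adjusted p = 0.0601). On the same reads edgeR and DESeq2 did call it lower (adjusted p = 0.00114 and 0.00154), and without day 3 replicate 3 limma gave −0.26 (adjusted p = 0.099).

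TGFBR1, the type I receptor kinase gene, had normalized values of 1938, 2033 and 1961 on day 3 and of 2130, 2215 and 2422 on day 5. The day 5 values were all above those of day 3, by a small margin: the log2 fold change was 0.19 (SE 0.082, limma adjusted p = 0.0967). TGFBR2, the type II receptor gene, had values of 2630, 2430 and 2621 on day 3 and of 2280, 2326 and 2551 on day 5. The days overlapped, and its log2 fold change was −0.10 (SE 0.084, limma adjusted p = 0.334). Per kilobase of exon the TGFBR2 transcript was at 1.23 to 1.58 times the TGFBR1 transcript in single libraries, in a line known to lack the working TGFBR2 protein. Without the length correction this ratio was 1.36, 1.20 and 1.34 on day 3 and 1.07, 1.05 and 1.05 on day 5, with no overlap between the days.

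SMAD6, the inhibitory SMAD that acts mainly on BMP signalling, had normalized values of 180, 192 and 170 on day 3 and of 180, 207 and 184 on day 5. The days overlapped, with a log2 fold change of 0.08 (SE 0.093, limma adjusted p = 0.519), and this is the gene whose promoter window held the SMAD palindrome shown above. SMAD7, which blocks TGF-beta as well as BMP receptors, had values of 94.8, 94.6 and 112 on day 3 and of 134, 122 and 176 on day 5. All day 5 libraries were higher, with day 5 replicate 3 well above the rest. SMAD7 rose by a log2 fold change of 0.50 (SE 0.158, limma adjusted p = 0.0357). Without day 5 replicate 3 its log2 fold change was 0.35 (adjusted p = 0.0651), and the call was also lost without day 3 replicate 1, day 3 replicate 2 or day 5 replicate 1 and under upper quartile scaling. The ratio of SMAD7 to SMAD6 overlapped between the days, at 0.527, 0.494 and 0.658 on day 3 and 0.747, 0.591 and 0.955 on day 5.

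ID1 had normalized values of 5614, 5733 and 6627 on day 3 and of 7420, 7050 and 7207 on day 5. The day 5 values lay close together and above those of day 3, of which replicate 3 was the highest. ID1 rose by a log2 fold change of 0.27 (SE 0.092, limma adjusted p = 0.0453). The call was close to the threshold: it was lost on leaving out any library other than day 3 replicate 3 (adjusted p = 0.095 to 0.134), while without day 3 replicate 3 it was 0.35 (adjusted p = 0.0108). Under upper quartile scaling, which moves the median log2 fold change of all genes from 0.011 to −0.14, ID1 was at 0.12 (limma adjusted p = 0.202).

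ID2 had normalized values of 2682, 2523 and 2950 on day 3 and of 2948, 2905 and 2911 on day 5. The day 5 values fell within the day 3 range, and the log2 fold change was 0.11 (SE 0.086, limma adjusted p = 0.327). ID3 went the other way, with values of 1636, 1701 and 2345 on day 3 and of 1483, 1159 and 1120 on day 5. All day 5 libraries were below all day 3 libraries, and day 3 replicate 3 was high among its group, as it was for BMP4. ID3 fell by 0.59 on the log2 scale (SE 0.183, limma adjusted p = 0.0347). Without day 3 replicate 3 the log2 fold change was −0.42 and the call was lost (adjusted p = 0.061), as it also was without day 3 replicate 2, day 5 replicate 2 or day 5 replicate 3 (adjusted p = 0.0551 to 0.101). ID4, the remaining ID gene, was below the filter in these libraries.

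Ratios between the 3 ID genes within single libraries differed between the days. As single genes ID2 was not called, and the ID1 and ID3 calls were lost in 8 and 6 of 14 alternatives. The ratio of ID1 to ID3 was 3.43, 3.37 and 2.83 on day 3 and 5.01, 6.09 and 6.43 on day 5. That of ID3 to ID2 was 0.610, 0.674 and 0.795 on day 3 and 0.503, 0.399 and 0.385 on day 5. Neither ratio overlapped between the days, and both keep their values under any scaling between libraries. ID1 to ID2 changed less, from 2.09, 2.27 and 2.25 to 2.52, 2.43 and 2.48. BMP4 to ID1 went from 0.501, 0.521 and 0.573 to 0.363, 0.317 and 0.330, and TGFB1 to TGFBR2 from 0.218, 0.297 and 0.301 to 0.966, 0.970 and 0.897. These ratios were chosen after the values were known and are given without a test. How many ratios of other gene pairs do not overlap was not examined. Among single tested genes 65.0% did not overlap between the days.

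**Figure D2:**
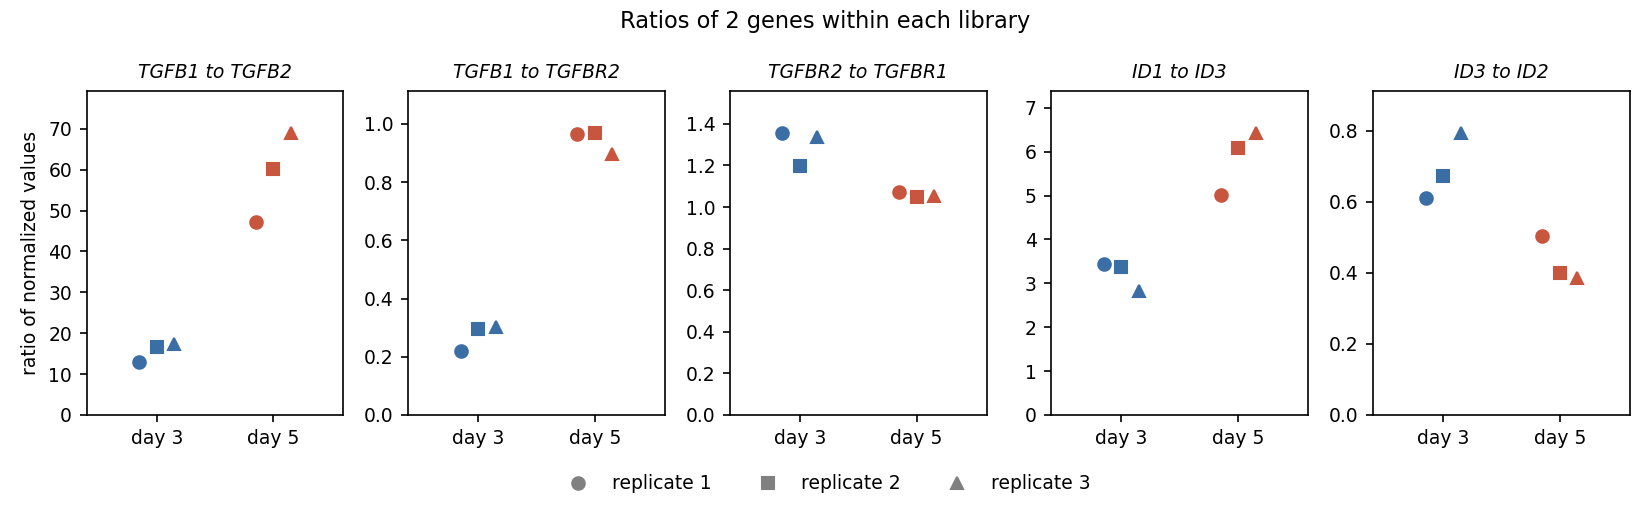
Ratio of the normalized values of 2 genes within each library (linear axes from 0), for the 3 day 3 and the 3 day 5 libraries, with marker shape for the replicate number. In all 5 panels the days do not overlap: the ratios TGFB1 to TGFB2, TGFB1 to TGFBR2 and ID1 to ID3 are higher on day 5, and TGFBR2 to TGFBR1 and ID3 to ID2 are lower.

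Levels were compared between genes per kilobase of annotated exon. On day 3 ID1 was far above the others at 4859 per kilobase, followed by ID3 (1266), ID2 (1228) and BMP4 (1034), then TGFBR2 (374), TGFBR1 (248) and TGFB1 (213), with SMAD7 (25.5), SMAD6 (21.1) and TGFB2 (7.35) lowest. On day 5 ID1 (5860) was again first, followed by ID2 (1320), ID3 (838), BMP4 (787) and TGFB1 (689), which had passed both receptor genes (TGFBR2 348, TGFBR1 282), and SMAD7 (36.6), SMAD6 (22.3) and TGFB2 (6.46) were again lowest. Neighbours whose order is not settled by the spread were ID3 and ID2 on day 3, where their ratio per kilobase in single libraries was 0.902, 0.997 and 1.18, and ID3 and BMP4 on day 5, where ID3 was higher in 2 of 3 libraries. ID2 was above BMP4 in each day 3 library, although their ranges overlapped. With the length of the canonical transcript in place of all exons, ID2 was above ID3 on day 3, and SMAD6 was above SMAD7.

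**Figure D3:**
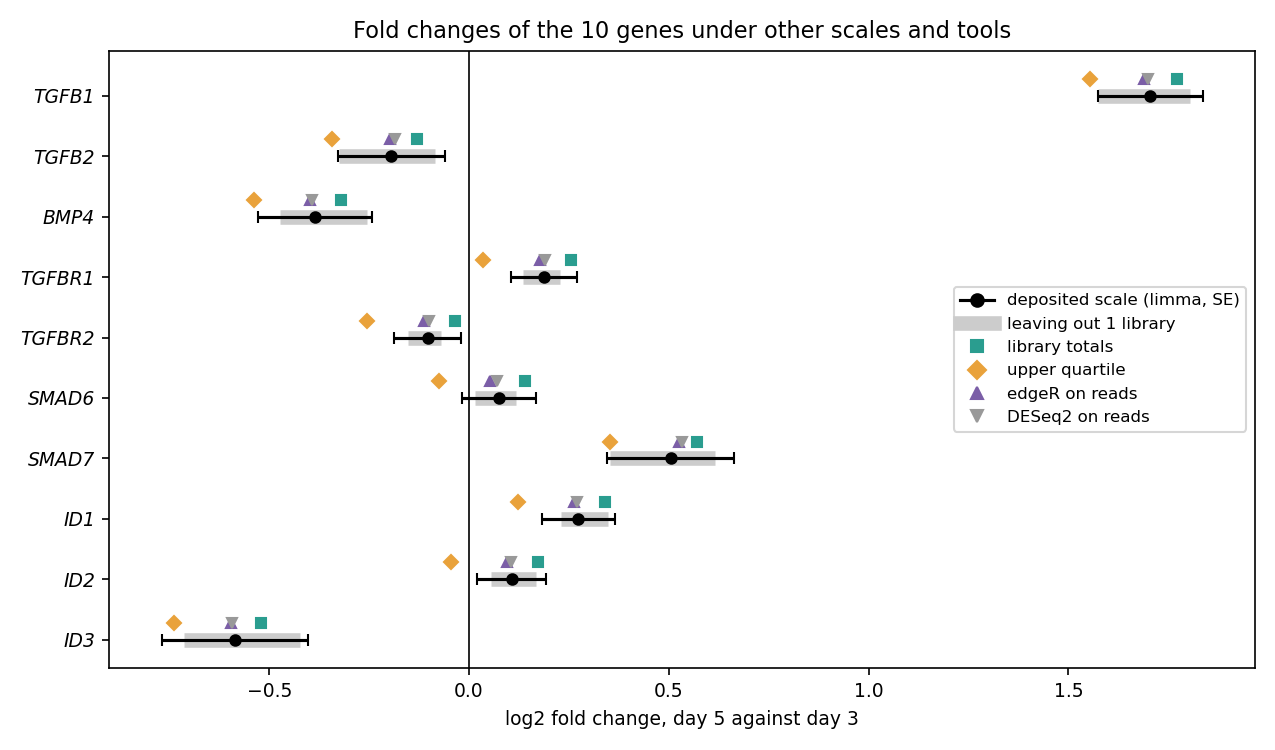
Log2 fold change from day 3 to day 5 of the 10 genes: black points with bars are the limma estimates with 1 SE on the deposited scale, grey bands span the estimates on leaving out each library in turn, and coloured symbols are other scalings and tools. TGFB1 stays between 1.55 and 1.80, whereas SMAD6 and ID2 cross 0 under upper quartile scaling, at −0.076 and −0.045.

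To place ID1, ID2, ID3, SMAD6 and SMAD7 among all genes, the 3 tested genes with the most similar profile over the 6 libraries were found, by the root mean square difference of log2 values centred on each gene's mean. For ID1 they were RIC8A, HEATR6 and FDXR (differences of 0.016 to 0.022), and for ID2 NOD1, TIMM29 and ZNF251 (0.018 to 0.027). For ID3 they were TESC, FES and CD83 (0.040 to 0.062). Like ID3 they were lower on day 5, which follows from choosing them by profile. For SMAD6 they were ENPEP, BTN2A1 and EIF4E3 (0.034 to 0.047), and for SMAD7 FGF18, PRKG1 and FNDC4 (0.037 to 0.083). Among the 10 genes themselves, the profile closest to that of ID3 was that of BMP4 (0.124), while ID1 was closest to ID2 (0.093). The 6 libraries come from only 2 days, and no test was made of these likenesses.

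The wider pathway was followed in lists by role, in which 86 of 112 genes present in the table passed the filter; changes in single genes are log2 fold changes. Of these 86, the 10 genes included, 47 (54.7%) rose, 8 (9.30%) fell and 31 were not called, beside the 29.3% higher and 27.6% lower among all tested genes. The same shares over all tested genes stand beside each count of a single list below. The median log2 fold change was 0.49, beside 0.011 over all tested genes. Of the 86, 23 genes rose at least 2-fold and 0 fell that far, beside 10.2% and 7.6% of all tested genes. FST and PMEPA1 are among those that rose, and they passed the filter only through day 5, where they were high. INHBB, which also rose, would not have passed the filter without its day 5 libraries. Without the 10 genes the counts were 44 higher and 7 lower of 76, with a median of 0.69. Under upper quartile scaling 50 of the 86 were called, 36 of them higher and 14 lower. Of the 55 original calls 44 remained, and INHBB, BMP8A, THBS1, ITGAV, RGMA, SMAD4, SMAD7, TRIM33, ID1, MSX2 and GATA2, all higher on the deposited scale, were no longer called. The 7 rising epithelial markers given above moved with these genes, and their part in the result was not tested.

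In the list of TGF-beta and activin ligands, which also holds other superfamily members such as GDF15, 4 of 7 tested genes rose and 0 fell. GDF15, a stress-induced member of the superfamily and the most abundant of this list per kilobase, went from 572, 705 and 795 to 2976, 3168 and 3169 (log2 fold change 2.18). TGFB3, the remaining TGF-beta isoform, rose by 0.78 from normalized values of 42.5 to 52.7 to values of 66.3 to 90.0. INHBB, an activin subunit gene, rose by 1.11 at low values (7.02 to 18.4 on day 3, 18.4 to 31.1 on day 5). The INHBB call was lost in 6 of 13 alternatives. Without its day 5 libraries, where it was higher, INHBB would not have passed the filter. Among BMP ligands 3 of 6 rose, BMP7 by 0.92, BMP8B by 0.94 and BMP8A by 0.64, while BMP4, the most abundant, was the one with a negative value. The median of the BMP ligands was 0.52. Under upper quartile scaling 2 of these 6 were called higher and 1, BMP4, lower, since BMP8A lost its call (adjusted p = 0.0891), as it also did with DESeq2 (adjusted p = 0.123).

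Genes of ligand latency and activation stood beside TGFB1 in direction: 8 of 12 rose and 0 fell, with a median log2 fold change of 0.99. All 4 genes named for latent TGF-beta binding proteins rose: LTBP2 by 1.99, LTBP3 by 1.66, LTBP1 by 1.47 and LTBP4 by 1.22. LTBP3 had the highest level per kilobase in this list over both days together, though on day 3 LTBP4 was slightly above it (218 and 215), with normalized values of 2451, 2527 and 2445 on day 3 and of 8130, 7977 and 7350 on day 5. FURIN, the protease that cleaves the TGF-beta precursor, went from 617, 757 and 819 to 2401, 2509 and 2629 (1.79), and BMP1, which encodes a metalloproteinase, rose by 1.07. THBS1 and ITGAV, an activator and an integrin subunit, rose by 0.73 and 0.36, calls that were lost under upper quartile scaling (limma adjusted p = 0.0552 and 0.118), where 6 of the 12 genes were higher and 2 lower. FBN1, ITGB6, ITGB8 and LRRC32 were not called (−0.16 to 0.91).

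Of the extracellular antagonists, FSTL3 (1.19), CHRD (0.97) and FST (2.04) rose. FST went from values of 3.09 to 4.25 to values of 15.5 to 22.5. It passed the filter only through day 5, so it could enter the test only as a riser. TWSG1, a BMP-binding protein gene and the most abundant of the list per kilobase, fell by 0.47 on the log2 scale. Among receptors the type II genes ACVR2B (1.09) and BMPR2 (0.84) and the type I genes ACVR1 (0.74) and ACVR1B (0.68) rose. The type I BMP receptor gene BMPR1A fell, from 2797, 2646 and 2702 to 1802, 1964 and 2083 (log2 fold change −0.48). Of the co-receptors 1 of 4 rose, RGMA by 0.76 (adjusted p = 0.0571 under upper quartile scaling, by limma), and RGMB, the most abundant, was at 0.07 (limma adjusted p = 0.644).

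The receptor-regulated and common SMADs divided. SMAD3, the TGF-beta mediator that binds DNA, went from 2496, 2685 and 2556 to 5761, 5622 and 6205 (log2 fold change 1.18), while SMAD2 was at −0.06 (limma adjusted p = 0.544). Of the BMP mediators, SMAD9 rose from 104, 72.9 and 72.3 to 296, 308 and 336 (1.92), whereas SMAD5, the most abundant SMAD per kilobase on day 3 (612) but not on day 5 (464, beside 586 for SMAD3), and SMAD1 fell by 0.40 and 0.32 on the log2 scale. The calls of SMAD5 and SMAD1 were each lost in 4 of 14 alternatives, that of SMAD5 also with library totals (limma adjusted p = 0.0623). SMAD4 rose by 0.35, a call lost under upper quartile scaling (limma adjusted p = 0.188). Among 15 SMAD regulators 9 rose and 1 fell, and under upper quartile scaling 8 were called higher and 3 lower. SKI, a SMAD corepressor gene, rose by 1.42, USP9X, a deubiquitinase gene, by 1.07, and PMEPA1, a TGF-beta target and SMAD antagonist, by 1.98 from values under 10 on day 3. PMEPA1, like FST, passed the filter only through day 5, where it was high. The ubiquitin ligase genes SMURF2 and SMURF1 rose by 0.52 and 0.78, WWP1 fell by 0.41, and STRAP, the most abundant, was at −0.20 (adjusted p = 0.142).

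Of the E-protein partners of the ID proteins, TCF3 went from 1796, 2165 and 2464 to 4283, 4284 and 4163 (log2 fold change 1.00, limma adjusted p = 0.00116), and TCF12 fell from 4856, 5131 and 5308 to 4110, 3780 and 4142 (−0.35, adjusted p = 0.0123). For neither gene did the days overlap. TCF4, a further E-protein gene, was below the filter.

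Classical TGF-beta target genes were higher as a list: 10 of 13 (76.9%) rose and 0 fell, beside 29.3% higher and 27.6% lower among all tested genes. The median log2 fold change was 1.17, beside 0.011 over all tested genes and 1.88 over the 8 epithelial markers. Whether TGF-beta signalling had a part was not tested, in a line known to lack the working TGFBR2 protein. FN1 (1.81), TGM2 (1.49) and COL1A1 (1.12), genes of the extracellular matrix and its cross-linking, rose, as did JUNB (1.44) and the cell cycle inhibitor genes CDKN2B (1.17) and CDKN1A (0.93). CCN2, a further well-known target, was at −0.15 (SE 0.325, adjusted p = 0.720), with values of 64.1 to 142 on day 3 and of 73.5 to 117 on day 5. The list holds SMAD7, LTBP2 and PMEPA1 as well, which are also counted in other lists. PMEPA1 passed the filter only through day 5, so it could enter this count only as a riser.

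BMP target genes, which include the ID genes, SMAD6 and SMAD7, went both ways, as tested genes at large did. Of 12, 5 (41.7%) rose and 2 (16.7%) fell, beside 29.3% higher and 27.6% lower among all tested genes. The median log2 fold change was 0.19, beside 0.011 over all tested genes. Besides ID1 and SMAD7, SMAD9, GATA2 (0.47) and MSX2 (0.37) rose. Under upper quartile scaling 1 of the 12, SMAD9, was called higher and 2, ID3 and ATOH8, lower, with GATA2 and MSX2 at limma adjusted p of 0.0664 and 0.153. ATOH8 fell together with ID3, by 0.89 on the log2 scale, at low values (14.2 to 21.6 on day 3, 6.43 to 10.4 on day 5). Without its day 3 libraries, where it was higher, ATOH8 would not have passed the filter. MSX1 (0.35, limma adjusted p = 0.0691), BAMBI (−0.11, adjusted p = 0.534) and HEY1 (−0.27, adjusted p = 0.395) were not called. The difference between the medians of the TGF-beta and the BMP target lists was not tested.

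**Figure D4:**
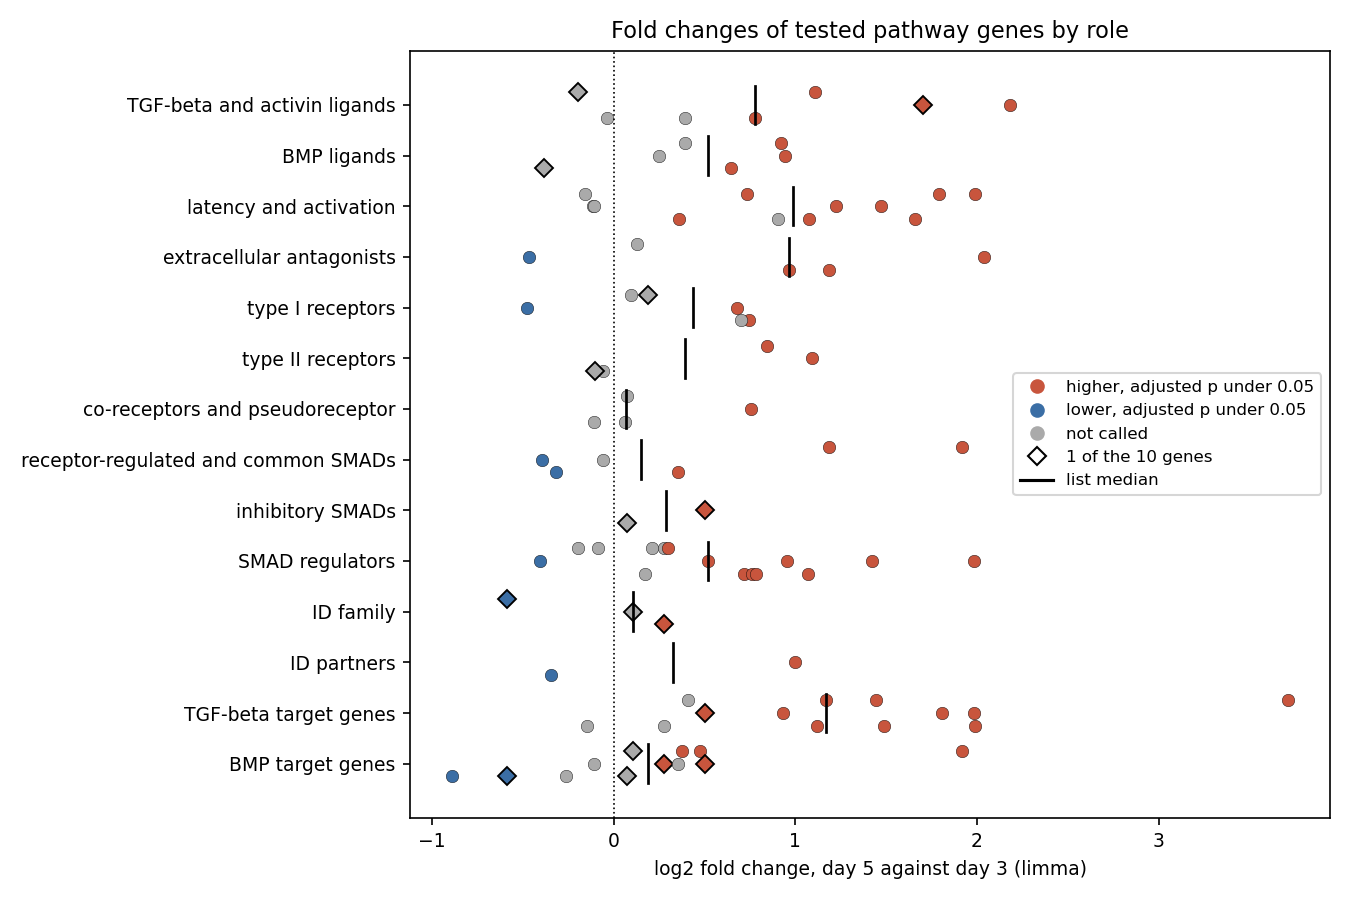
Log2 fold change from day 3 to day 5 (limma) of each tested pathway gene, in rows by role, with red for higher, blue for lower and grey for not called at an adjusted p under 0.05, diamonds for the 10 genes and a black line for the median of each list. TGF-beta target genes and the latency and activation genes have medians of 1.17 and 0.99, with no gene called lower on the deposited scale. Under upper quartile scaling 2 latency and activation genes were called lower. Rows with genes called in both directions include the BMP target genes, the ID family and the receptor-regulated and common SMADs.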

How the data were processed

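RNA libraries were made by the authors from ribosome-depleted whole-cell RNA (KAPA RNA HyperPrep) with adapters carrying unique molecular identifiers; how these were used is not given in the sources used here. Reads were aligned in CLC Genomics Workbench to hg38 with ENSEMBL release 99 genes and reverse-strand counting. The deposited table holds 1 normalized signal value per gene and library, scaled between libraries by a factor for each library. The methods name TMM normalization for the study's own comparison, and whether the deposited factors are of that kind is not given in the sources used here. All values were whole multiples of the value of 1 read (100% within 0.01 read), which gave the reads on genes. The authors' own comparison columns (fold changes and p-values) and the small-RNA tables were not used.

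Genes that reached a value of 10 in 3 or more of the 6 libraries were tested with limma 3.58.1 in R 4.3.3 on log2(value + 1), so fold changes of low genes are understated, with Benjamini-Hochberg adjustment over all 20129 genes and a threshold of 0.05. The recovered reads were also tested with edgeR 4.0.16 and DESeq2 1.42.0. Other alternatives were other scalings, filters and pseudocounts, a replicate block and leaving out each library. No pair of libraries differed by as little as sampling noise. The fits were first tested on simulated data.

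The 10 genes and the lists were chosen with earlier results of these data known. Genes named beyond the 10 were pathway genes called with at least a 2-fold change and a mean of at least 10 on 1 day, the most abundant gene per kilobase of each list, and the 3 nearest profiles. Other pathway genes were named after their values were seen. The values of 1 pathway gene that met the rule are not reported here, and it is included in the counts. Gene positions are from GENCODE 44 and promoter windows from RefSeq.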

Additional observations from a re-analysis of the deposited data

How the results depend on the processing

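TGFB1 was called higher under every alternative run (log2 fold change 1.55 to 1.80). The count of called genes among the 10 was 4. It was 1 with no filter on low values, 1 when a 2-fold change was also required, and 1 to 3 on leaving out each library (1 without day 3 replicate 2, 2 without day 5 replicate 2, 1 without day 5 replicate 3, and 3 without day 3 replicate 3). It was 5 with library totals, 6 with edgeR and 5 with DESeq2. Under upper quartile scaling it was again 4, but with 1 higher and 3 lower, since SMAD7 and ID1 were no longer called while BMP4 (−0.54, adjusted p = 0.0106) and TGFBR2 (−0.25, adjusted p = 0.0416) were, and SMAD6 and ID2 turned from 0.08 and 0.11 to −0.076 and −0.045. The cause was not tested. With no filter SMAD7, ID1 and ID3 had adjusted p of 0.109, 0.175 and 0.101. TGFBR1 was called by edgeR (adjusted p = 0.0393) and TGFB2 without day 5 replicate 1 (adjusted p = 0.0487). Over all alternatives the adjusted p of BMP4 ranged from 0.00114 to 0.169. With a minimum of 50, TGFB2 was not tested.

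The pathway count of 55 ranged from 38 to 62 over alternatives, 43 to 54 on leaving out each library, and was 23 with a 2-fold minimum, with 0 of the 55 reversed in any fit. Over all genes, 3589 of the 11450 calls were at least 2-fold. Upper quartile scaling lowered the share of calls that were higher from 51.5% to 40.9%.

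Same-numbered libraries of the days did not deviate together (correlations of −0.011, 0.034 and 0.023), and not every library correlated best with its own number. With the replicate number as a block, 2 of the 10 genes and 46 pathway genes were called, the 2 being TGFB1 and SMAD7.

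Among the 10 genes TGFB2 had the fewest reads, at 32 to 70 per library. Some pathway genes had fewer, such as FST with 3 to 21. On leaving out the filter or adding the block, 1 and 2 of the 12 BMP target genes tested on the deposited scale were called higher, and 0 lower.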
